A study of Mus musculus with 9 samples.

Results

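The study's liver RNA was searched for 10 genes that make and place polyunsaturated fatty acids in phospholipids, and these were followed across 3 genotypes: the desaturases Fads1 and Fads2, the elongases Elovl2 and Elovl5, the acyltransferases Lpcat3 and Mboat7, the phosphatidylcholine synthesis genes Pemt, Pcyt1a and Chka, and Enpp2, which encodes autotaxin. They were taken by name, by matching the Ensembl identifiers of the deposited tables to mouse gene symbols. All 10 were found among the 41388 genes of the tables, and all 10 were among the 14741 genes with enough counts to test. The rule names the genes and sets no threshold on their values, but they were chosen with earlier results of these data known.

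The livers came from male C57BL/6J mice, and every animal, controls included, had received diethylnitrosamine (DEN), a liver carcinogen, at 25 mg per kg by intraperitoneal injection at 14 days of age. The mice ate a standard chow diet and their livers were taken at 6 months. Control mice (Con in the plots) carried floxed Mttp alleles, Mttp fl/fl. MttpLKO mice (LKO) lacked Mttp in the liver, and the double knockout Fabp1 Mttp DKO (DKO) combined that deletion with a germline deletion of Fabp1. Mttp encodes the microsomal transfer protein needed to lipidate apolipoprotein B and secrete very low density lipoprotein, and Fabp1 encodes the main fatty acid-binding protein of the hepatocyte. Each genotype had 3 libraries of oligo(dT)-selected whole-liver RNA, and each library was a pool of RNA from 3 mice, 27 mice in all. The driver of the liver deletion is not given in the sources used here, and neither is whether tumour or surrounding tissue was sampled. Mice with Fabp1 deleted alone, and mice without DEN, were not analysed here, so each difference holds for DEN-treated livers.

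The essential fatty acids of the diet are lengthened and desaturated in the hepatocyte. The protein of Fads2 carries out the first desaturation, that of Fads1 a later one on the way to arachidonic and eicosapentaenoic acid, and Elovl5 and Elovl2 add carbons between and after these steps toward docosahexaenoic acid. Lpcat3 places polyunsaturated chains into lysophosphatidylcholine, which matters for membrane fluidity and lipoprotein assembly, and Mboat7 places arachidonate into lysophosphatidylinositol. Phosphatidylcholine is made from choline, through choline kinase (Chka) and the enzyme of Pcyt1a that activates phosphocholine, or in liver by methylating phosphatidylethanolamine with the enzyme of Pemt. Autotaxin is secreted and releases lysophosphatidic acid, a signalling lipid, from lysophosphatidylcholine.

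Total counts ran from 23268389 to 27918197, and all 3 DKO libraries were shallower than the other 6. The deletions were visible in the RNA. Levels are given in CPM, the usual count scaled to a common library total, here with TMM-scaled library sizes. Mttp stood at 110 ± 61.5 CPM (SD, n = 3) in controls, 7.39 ± 2.07 in MttpLKO and 4.52 ± 1.28 in DKO. Fabp1 stood at 6381 ± 412, 4120 ± 810 and 65.2 ± 14.0 CPM. The 8 hepatocyte markers summed to between 66110 and 106500 CPM per library, lowest in DKO replicates 1 and 2 (66110 and 84200). Of these markers, 1 of 8 was higher in value in DKO than in MttpLKO. Liver macrophage markers summed to 43.6, 54.1 and 138 CPM in MttpLKO, 112 to 153 in controls and 75.4 to 176 in DKO. No tested marker gene of the 9 cell type lists passed the test. The part of these markers in the values of the 10 genes was not tested. MttpLKO replicate 3 was far from the others along the first principal component (53.7, with the other 8 between -17.4 and 9.62). Its B and plasma cell markers summed to 637 CPM against 24.8 to 53.6 in the other 8 libraries, and its proliferation markers to 25.7 CPM against 6.30 to 13.3. The labels call each pool a separate sample, and p-values measure the spread between pools. In bulk liver, fewer cells of a type and less RNA per cell cannot be told apart.

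Promoter sequence is shown for 3 genes. Fads2 and Elovl2 had levels that moved together between pools of the same genotype. In some of the Pcyt1a windows the search found a sterol regulatory element, the sequence bound by the lipid-sensing SREBP factors. Of the 10 genes, 8 had entries in the RefSeq promoter table (GRCm38.p6), with 12 start sites in all, and Fads1 and Enpp2 had none. Each window is the 250 bases before the annotated start, written 5′ to 3′ on the gene's strand, with motif matches in capitals. Fads2 is chr19:10101504-10101753 (minus strand), Elovl2 is chr13:41220404-41220653 (minus strand) and Pcyt1a is chr16:32430671-32430920 (plus strand).
Fads2: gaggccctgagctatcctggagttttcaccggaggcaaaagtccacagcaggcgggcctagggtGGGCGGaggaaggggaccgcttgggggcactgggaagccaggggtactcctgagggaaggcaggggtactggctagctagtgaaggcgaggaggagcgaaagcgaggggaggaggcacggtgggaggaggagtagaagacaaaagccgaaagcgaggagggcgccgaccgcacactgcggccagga
Elovl2: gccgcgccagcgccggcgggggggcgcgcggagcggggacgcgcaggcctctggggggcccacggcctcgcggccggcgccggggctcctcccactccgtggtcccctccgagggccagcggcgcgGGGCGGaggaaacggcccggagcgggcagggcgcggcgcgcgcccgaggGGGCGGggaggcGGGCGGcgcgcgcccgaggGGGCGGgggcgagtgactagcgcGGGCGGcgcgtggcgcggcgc
Pcyt1a: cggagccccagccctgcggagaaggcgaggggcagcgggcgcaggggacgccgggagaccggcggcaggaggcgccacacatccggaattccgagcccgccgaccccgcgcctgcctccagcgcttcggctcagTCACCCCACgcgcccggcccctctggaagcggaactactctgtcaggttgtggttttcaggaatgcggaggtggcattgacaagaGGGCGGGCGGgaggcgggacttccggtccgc

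Motifs were searched on both strands in the 250-base windows: the sterol regulatory element TCACNCCAC, the CCAAT box, the E-box CACGTG and the GC box GGGCGG. The Fads2 window above held 1 GC box, at -186 from the start, and had a GC content of 64.8%. The Elovl2 window held 5 GC boxes and had a GC content of 87.2%. Neither held a match to the other motifs. The window of another Elovl2 start site held no match to any of these motifs and had a GC content of 79.6%. The Pcyt1a window held the sterol regulatory element at -116 and 2 overlapping GC boxes. A second Pcyt1a start site further along had the same element at -215 in its own, overlapping window. The remaining Pcyt1a window held no match to any of these motifs. Among all 32851 windows in the table, 1.05% held the sterol regulatory element, 33.85% a CCAAT box, 6.02% an E-box and 32.74% a GC box. The Lpcat3 window had 3 CCAAT boxes and 5 GC boxes, and the Elovl5 window 2 CCAAT boxes and 1 E-box. These are matches of letters, and binding was not measured.

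The genes covered a wide range of levels. Per kilobase of the deposited gene length, over the 9 libraries, Pemt was the most abundant at 179.5 ± 22.8 CPM per kb (mean ± SD, n = 9). Next were Fads1 at 115.0 ± 16.3 and Fads2 at 114.5 ± 22.7 CPM per kb, whose ranges overlapped. Elovl2 (48.7 ± 8.38), Lpcat3 (43.9 ± 5.95) and Elovl5 (39.2 ± 6.38) formed a middle group in which each gene's range overlapped that of the next. Enpp2 (17.8 ± 2.40), Pcyt1a (9.49 ± 1.61), Mboat7 (5.70 ± 0.376) and Chka (3.41 ± 0.542) followed with no overlap between neighbours. Pemt lay at the 97.9th percentile of the tested genes by this level and Chka at the 53.2nd. The position of some genes depends on the gene model: the deposited length of Fads2, 1508 bases, was 2.19 times shorter than the union of its exons in GENCODE M21, and that of Enpp2 was 1.66 times shorter and that of Fads1 1.39 times. For the remaining 7 genes the ratio was between 1.00 and 1.29. Comparisons of 1 gene between genotypes do not involve this length.

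**Figure D1:**
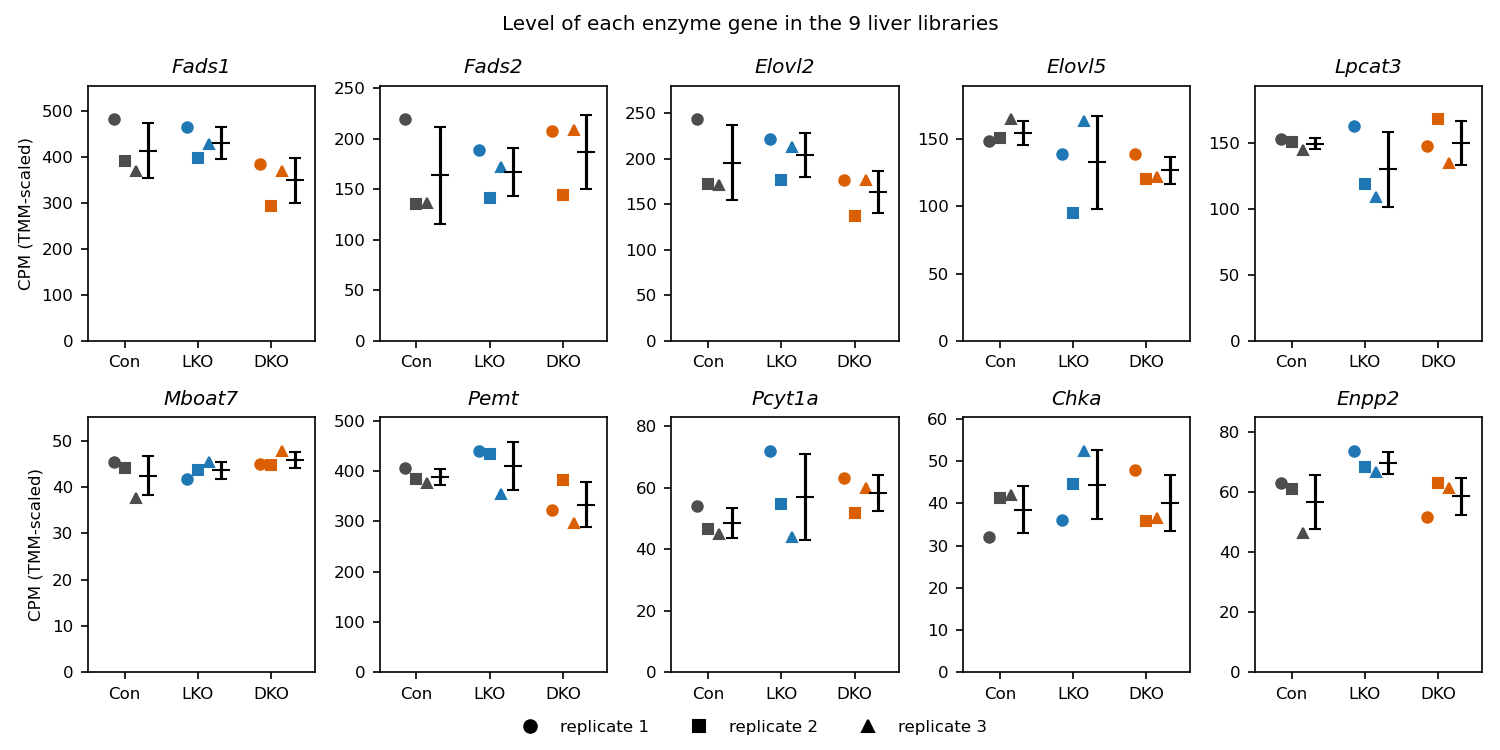
Level of each of the 10 genes in the 9 liver libraries, in CPM on TMM-scaled library sizes, for controls (Con), MttpLKO (LKO) and DKO. Marker shapes give the replicate number, and the bar beside each group gives the mean and SD over 3 libraries. Enpp2 is the one gene whose 3 LKO libraries (66.7 to 73.7) all lie above all 3 control libraries (46.4 to 62.9).

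None of the 10 genes passed the test in any comparison. With edgeR's quasi-likelihood test, adjusted by Benjamini-Hochberg over all 14741 genes, 0 of 10 were called in MttpLKO against control, where 0.346% of all genes were called. In DKO against MttpLKO it was 0 of 10 against 0.4% of all genes, and in DKO against control 0 of 10 against 0.332%. A test for any difference among the 3 genotypes called 0 of 10, against 0.678% of all genes. At an unadjusted p under 0.05 the counts were 1 of 10 (Enpp2) in MttpLKO against control, 1 of 10 (Pemt) in DKO against MttpLKO and 0 of 10 in both DKO against control and the joint test. The shares of all genes at that level were 6.97%, 9.1%, 11.2% and 10.3% in the same order. None of the 10 was called by DESeq2 or limma-voom either.

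The size of difference that the data allow was limited. The largest fold change of the 30 was 1.25-fold (Elovl2, lower in DKO than in MttpLKO), and standard errors ran from 0.10 to 0.21 on the log2 scale. All 30 of the 95% confidence intervals lay within a 2-fold change in either direction, and 21 of 30 lay within 1.5-fold. The farthest bound of any interval was 1.603-fold. Counts behind these values ran from 792 to 12179 per gene and library. The median log2 fold change of the 10 genes was 0.06 in MttpLKO against control, -0.10 in DKO against MttpLKO and 0.03 in DKO against control, beside medians of 0.01, -0.02 and -0.00186 for all tested genes.

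**Figure D2:**
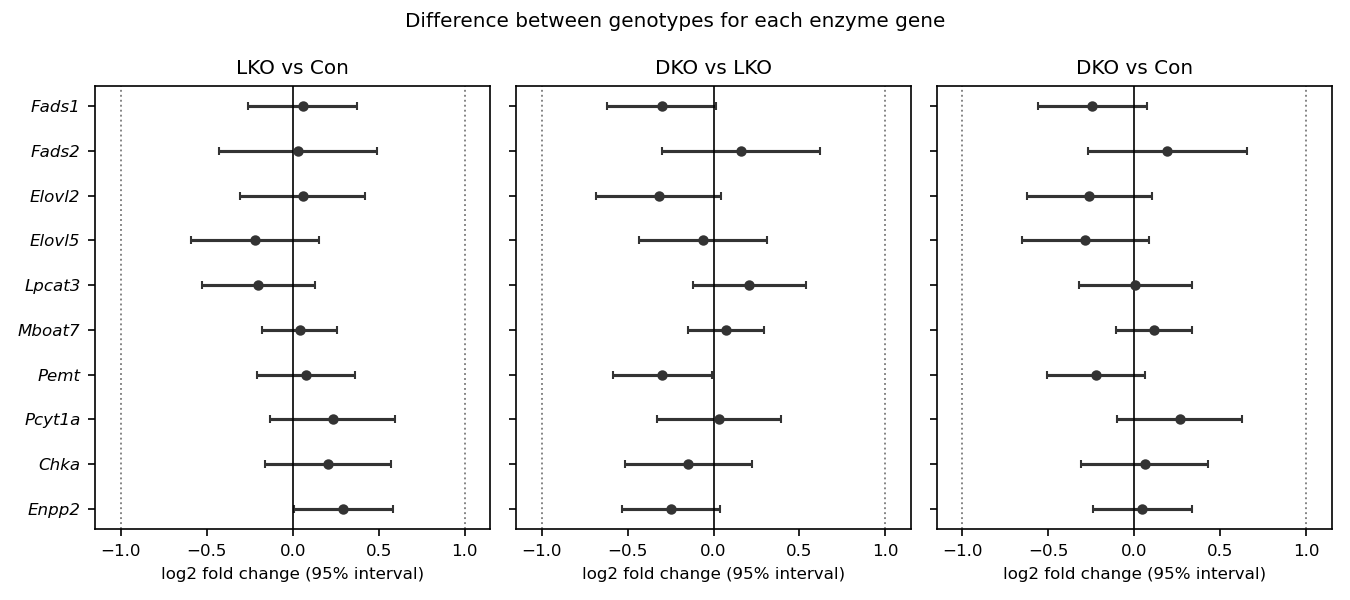
Log2 fold change of each gene in the 3 comparisons, with 95% confidence intervals from edgeR's fit over 9 libraries. Dotted lines mark a 2-fold change in either direction, and all 30 intervals lie between them.

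Among the desaturases, Fads2 (chr19:10064164-10101503, minus strand) had 219, 136 and 136 CPM in the control libraries, 188, 142 and 172 in MttpLKO, and 208, 145 and 209 in DKO. The 3 groups overlapped, with the highest value in control replicate 1 and the lowest in control replicate 2. The log2 fold change was 0.03 ± 0.21 (SE) in MttpLKO against control, 0.16 ± 0.21 in DKO against MttpLKO and 0.19 ± 0.21 in DKO against control (edgeR, adjusted p = 0.996, 0.865 and 0.795). The last value was 0.477 without control replicate 1 and 0.0713 without control replicate 2. Fads1 (chr19:10182888-10196870, plus strand) lies 81.4 kb from Fads2, and the genes point away from each other. Its CPM were 481, 390 and 369 in controls, 465, 397 and 428 in MttpLKO, and 385, 293 and 369 in DKO. All 3 DKO libraries lay below all 3 MttpLKO libraries, while controls overlapped both. The difference between them, -0.30 ± 0.14 (SE) on the log2 scale, did not pass the test (edgeR adjusted p = 0.565), and it was -0.178 without DKO replicate 2. Across all genes 11.5% had no overlap between the libraries of these groups.

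The elongase Elovl2 (chr13:41182495-41220405, minus strand) followed the order of Fads1. It had 243, 172 and 171 CPM in controls, 222, 176 and 213 in MttpLKO, and 176, 137 and 177 in DKO. DKO replicate 2 was the lowest of the 9 libraries and control replicate 1 the highest, and the groups overlapped. Its difference was -0.32 ± 0.16 on the log2 scale in DKO against MttpLKO (edgeR adjusted p = 0.604) and -0.26 ± 0.16 in DKO against control (adjusted p = 0.603). Without DKO replicate 2 these were -0.194 and -0.139, and without control replicate 1 the second was -0.0567. Elovl5 (chr9:77917364-77984519, plus strand), the elongase that acts on the shorter chains, had another profile, with 149, 151 and 165 CPM in controls, 139, 95.2 and 164 in MttpLKO, and 139, 121 and 122 in DKO. Its 3 DKO libraries lay below its 3 control libraries, a pattern that 18.1% of all genes had in 1 direction or the other. DKO differed from control by -0.28 ± 0.17 on the log2 scale (edgeR adjusted p = 0.580), and the MttpLKO libraries spanned most of the range of both other groups.

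Fads1, Fads2 and Elovl2 varied together between pools of the same genotype, a pattern noticed after the values were seen. Over the 9 libraries the log2 CPM of Fads1 and Elovl2 had a Pearson r of 0.971 (two-sided exact permutation p = 0.000118, adjusted over the 45 pairs of the 10 genes p = 0.00533). Spearman's rho was 0.817 (exact permutation p = 0.0108, adjusted p = 0.388). These permutations shuffled all 9 libraries without regard to genotype, so they do not test likeness within a genotype. Without control replicate 1 and DKO replicate 2, the 2 libraries farthest from the median of Fads1, r was 0.932, and leaving out single libraries gave r between 0.961 and 0.979. Of 12425 named genes with a mean of at least 1 CPM, Elovl2 was the most alike to Fads1 by this r, and Fads1 the most alike to Elovl2. Within the genotypes, after subtracting each genotype's mean, r was 0.960, given as a description with no test. By that measure each ranked 9 in the list of the other. The ratio of their CPM stayed between 1.98 and 2.26 in all 9 libraries.

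Fads2 was less alike to both over all libraries than within genotypes. Its r with Fads1 was 0.490 (exact permutation p = 0.184, adjusted over the 45 pairs p = 0.868), and rho was 0.267 (p = 0.493, adjusted p = 0.976, exact permutation). Without control replicate 1 and DKO replicate 2 that r was 0.173. With Elovl2, r was 0.589 (exact permutation p = 0.0937, adjusted p = 0.868) and rho 0.683 (p = 0.0503, adjusted p = 0.544, exact permutation), and without control replicates 1 and 2 r was 0.426. After subtracting genotype means, r was 0.972 with Fads1 and 0.996 with Elovl2, given as a description with no test. By the measure within genotypes Fads2 ranked 1 among the 12425 genes for Elovl2 and 5 for Fads1, and over all libraries it ranked 548 and 1252. Replicate 2 had the lowest value of all 3 genes in MttpLKO and in DKO, and control replicate 1 had the highest value of all 9 libraries for each. That library was also the highest control for Mttp, at 181 CPM against 79.9 and 69.4, and without it the r of Fads1 with Elovl2 was 0.965.

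**Figure D3:**
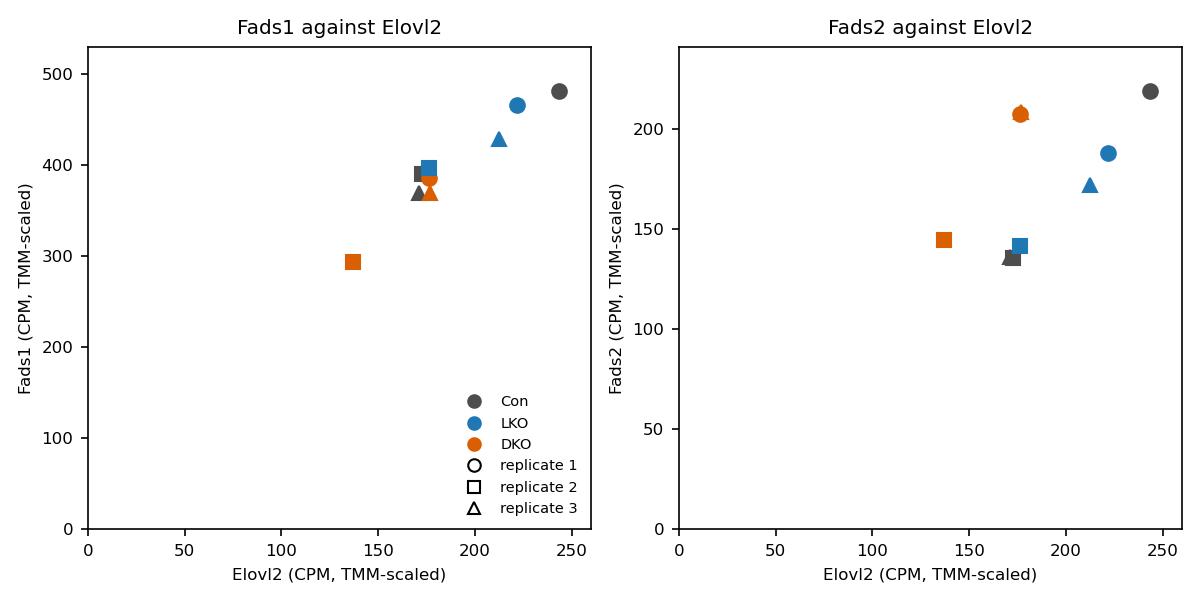
Fads1 (left) and Fads2 (right) against Elovl2 in each library, in CPM on TMM-scaled library sizes. Colours give the genotype and shapes the replicate. On the left the 9 libraries lie along 1 line (r = 0.971), and on the right the 3 DKO libraries lie above the line of the other 6.

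The ratio of Fads2 to Elovl2 within a library, which library scaling does not touch, was set apart in DKO. Per kilobase it was 2.30, 2.01 and 2.03 in controls, 2.17, 2.05 and 2.06 in MttpLKO, and 3.01, 2.69 and 3.02 in DKO. All 3 DKO libraries exceeded the other 6. The mean was 2.11 ± 0.162 (SD, n = 3) in controls, 2.10 ± 0.0637 in MttpLKO and 2.91 ± 0.185 in DKO. On the log2 scale the ratio was 0.47 higher in DKO than in MttpLKO and 0.46 higher than in control (two-sided exact permutation p = 0.1 in each, the smallest that 3 against 3 libraries allow). The ratio of Fads2 to Fads1 was 1.22 ± 0.0852 in DKO against 0.889 ± 0.0608 in MttpLKO and 0.896 ± 0.13 in controls, again without overlap (exact permutation p = 0.1 in each). The ratio of Fads1 to Elovl2 was 2.37 ± 0.159, 2.36 ± 0.133 and 2.38 ± 0.0567 in controls, MttpLKO and DKO.

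These ratios were picked after their values were seen, from 45 pairs of the 10 genes in 3 comparisons. The libraries did not overlap for 4 of 45 pairs in MttpLKO against control, 10 of 45 in DKO against MttpLKO and 13 of 45 in DKO against control. In 6 of 45, DKO lay apart from both other genotypes in the same direction. The pairs share genes, and the share over all pairs of tested genes was not computed, so these counts have no background to be read against. Relative to Elovl2, 2 of the other 9 genes (Fads2 and Pcyt1a) were higher in all 3 DKO libraries than in all 6 others, a pattern that 11.4% of all tested genes had. Relative to Fads1 it was 3 of 9 (Fads2, Mboat7 and Pcyt1a), against 13.7% of all tested genes. A high ratio to Elovl2 or Fads1 in DKO was therefore shared with many genes.

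**Figure D4:**
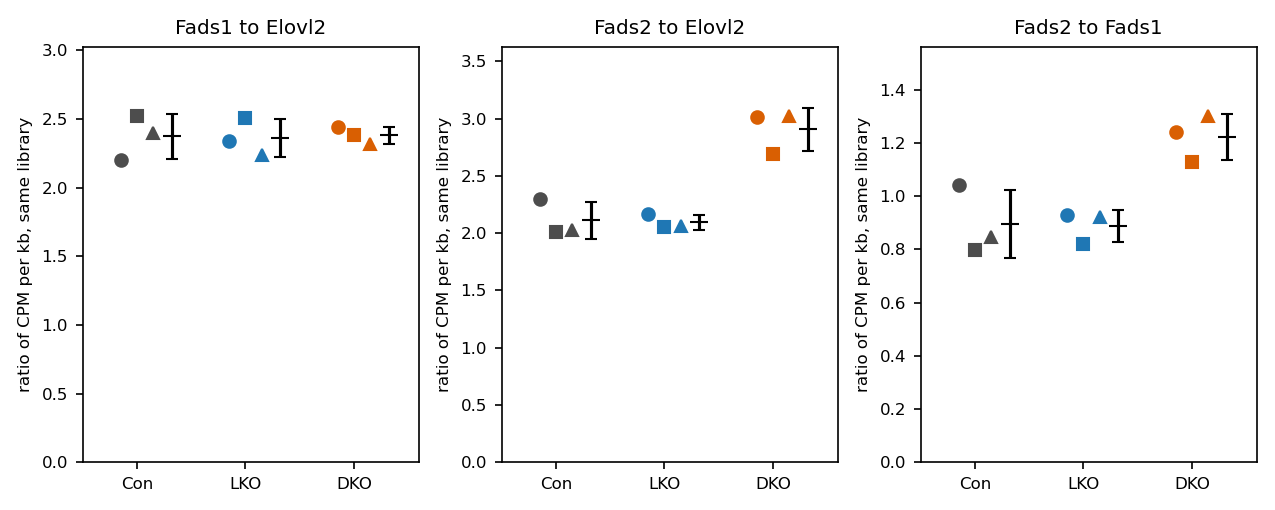
Ratios between the PUFA enzyme genes within each library, as CPM per kilobase of the deposited gene length, with the mean and SD over 3 libraries beside each group. Fads1 to Elovl2 lies between 2.20 and 2.52 in all genotypes, while Fads2 to Elovl2 is 2.69 to 3.02 in DKO and 2.01 to 2.30 in the other 6 libraries.

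Of the acyltransferases, Lpcat3 (chr6:124663027-124704418, plus strand) had 153, 151 and 145 CPM in controls, 163, 119 and 109 in MttpLKO, and 148, 168 and 135 in DKO. MttpLKO replicates 2 and 3 were the lowest of the 9 libraries and replicate 1 was the second highest, so that group spanned nearly the whole range. Lpcat3 differed by a log2 fold change of -0.20 ± 0.15 in MttpLKO against control (edgeR adjusted p = 0.904), 0.21 ± 0.15 in DKO against MttpLKO (adjusted p = 0.722) and 0.01 ± 0.15 in DKO against control (adjusted p = 0.996). The lowest value was that of MttpLKO replicate 3, the library with high B cell and proliferation markers, and without it the first and second of these differences were -0.0951 and 0.0982. Without MttpLKO replicate 1 they were -0.397 and 0.419 (edgeR adjusted p = 0.304 and 0.211). The part of those markers in the result was not tested. Emg1 (chr6:124704381-124712178) overlaps only the last bases of Lpcat3, which ends at 124704418, on the opposite strand. Over its whole length Emg1 had 29.3% as many counts, and the count within the shared stretch was not measured. The strand setting of the counting is not given in the sources used here, so reads in the shared stretch cannot be assigned with certainty.

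Lpcat3 sits beside genes that did change. Of 39 tested genes within 500 kb, 3 were called in MttpLKO against control and in DKO against MttpLKO, and no called gene lay that close to any of the other 9. C1s2, a complement protease gene 26.9 kb away, averaged 0.125 ± 0.0937 CPM in controls, 38.8 ± 1.32 in MttpLKO and 0.213 ± 0.0748 in DKO (n = 3 each). Its log2 fold change was 8.21 in MttpLKO against control (edgeR adjusted p = 6.5e-08) and -7.48 in DKO against MttpLKO (adjusted p = 7.14e-08). C1rb, 81.9 kb away, averaged 0.136, 31.5 and 0.0970 CPM in the same order, and Pianp, 292 kb away, 0.538, 6.41 and 0.504. C1rb and C1s2 have close copies nearby in the mouse genome, and whether reads were split between copies was not tested. Lpcat3 itself, in the same stretch of chromosome 6, differed by no more than 0.21 on the log2 scale in these comparisons.

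Mboat7 (chr7:3677790-3693523, minus strand) was the steadiest of the 10. It had 45.5, 44.2 and 37.6 CPM in controls, 41.7, 43.6 and 45.5 in MttpLKO, and 45.0, 44.8 and 47.9 in DKO. All groups overlapped, and the log2 fold changes were 0.04, 0.07 and 0.11, each with an SE of 0.10. The 95% interval in DKO against control ran from -0.11 to 0.33 on the log2 scale. Tsen34 (chr7:3693375-3701023) overlaps the first bases of Mboat7, which starts at 3693523, on the opposite strand. Over its whole length Tsen34 had 38.9% as many counts.

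The phosphatidylcholine genes gave small differences of both signs. Pemt (chr11:59970614-60046489, minus strand), the methylation route, had 407, 385 and 376 CPM in controls, 441, 435 and 355 in MttpLKO, and 322, 383 and 296 in DKO. DKO replicates 1 and 3 were the lowest of the 9 libraries, while DKO replicate 2 lay within the control range. The log2 fold change in DKO against MttpLKO was -0.30 ± 0.13 (edgeR unadjusted p = 0.043, adjusted p = 0.532, 95% interval -0.58 to -0.0111). Leaving out 1 library gave values from -0.393 (without DKO replicate 2) to -0.21 (without DKO replicate 3), and adjusted p over all alternatives lay between 0.301 and 0.833. Against control it was -0.22 ± 0.13 (adjusted p = 0.575).

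Pcyt1a (chr16:32430921-32475070, plus strand), the rate-controlling gene of the choline route, had 54.1, 46.5 and 44.9 CPM in controls, 72.0, 54.8 and 44.1 in MttpLKO, and 63.2, 51.7 and 59.9 in DKO. MttpLKO replicates 1 and 3 were the highest and lowest of all 9 libraries. Pcyt1a had a log2 fold change of 0.23 ± 0.16 in MttpLKO against control and 0.27 ± 0.16 in DKO against control (edgeR adjusted p = 0.892 and 0.599). The first value was 0.0255 without MttpLKO replicate 1 and 0.381 without MttpLKO replicate 3. The ratio of Pemt to Pcyt1a per kilobase was 20.6, 22.6 and 22.9 in controls, 16.7, 21.7 and 22.0 in MttpLKO, and 13.9, 20.2 and 13.5 in DKO. DKO and control did not overlap (means 15.9 ± 3.74 and 22.0 ± 1.28), while DKO and MttpLKO did. The exact permutation p for DKO against control was 0.1, the smallest that 3 against 3 libraries allow. This is 1 of the 13 pairs counted above, which have no background to be read against. Chka (chr19:3851773-3894369, plus strand), the first step of that route, had 32.02, 41.4 and 42.0 CPM in controls, 36.1, 44.5 and 52.5 in MttpLKO, and 47.8, 35.9 and 36.6 in DKO. Its highest value was in MttpLKO replicate 3, and the log2 fold change against control was 0.21 ± 0.17 with that library and 0.0623 without it (edgeR adjusted p = 0.918 and 0.980). It was 0.0906 without control replicate 1 and 0.331 without MttpLKO replicate 1. Whether the immune and proliferation markers of that library bear on this was not tested.

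Enpp2 (chr15:54838898-54920146, minus strand) came nearest to a difference between MttpLKO and control. Its CPM were 62.9, 61.0 and 46.4 in controls, 73.7, 68.4 and 66.7 in MttpLKO, and 51.6, 63.0 and 61.3 in DKO. All 3 MttpLKO libraries lay above the other 6, and DKO and control overlapped. Of all genes, 14.3% had no overlap between MttpLKO and control. Enpp2 had a log2 fold change of 0.29 ± 0.13 in that comparison (edgeR unadjusted p = 0.0452, adjusted p = 0.692, 95% interval 0.00751 to 0.58), and -0.25 ± 0.13 in DKO against MttpLKO (adjusted p = 0.610). Over 18 alternatives the first value ran from 0.158 (without control replicate 3) to 0.374 (without control replicate 1), with adjusted p from 0.581 to 1. Markers of bile duct cells also did not overlap, with a sum of 62.9 to 70.6 CPM in controls and 83.5 to 140 in MttpLKO. All 5 tested of 6 were higher in value there and none passed the test. Of all tested genes, 7705 of 14741 were higher in value in that comparison. Most tested markers of stellate cells (8 of 9), B and plasma cells (8 of 8), T and NK cells (6 of 6) and proliferating cells (5 of 5) were higher too. For hepatocytes it was 5 of 8, for sinusoidal endothelial cells 2 of 7, for macrophages 1 of 8 and for adipocytes 1 of 3. Spp1 made up most of the bile duct sum, at 42.4 to 52.3 CPM in controls and 62.3 to 109 in MttpLKO. Spp1 and Epcam did not overlap between these groups, while Krt19, Krt7, Sox9 and Cftr did. Adipocyte markers, of which Lep was at 0 in every library, summed to 42.0 to 46.5 CPM in controls, 32.8 to 43.2 in MttpLKO and 50.9 to 104 in DKO. Lipe made up 20.6 to 38.9 CPM of these sums. The part of any of these cell types in the Enpp2 values was not tested.

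The wider pathway was described with 8 lists of 121 genes, 111 of them tested, and 0 of 111 passed the test in each comparison with edgeR. At an unadjusted p under 0.05, 7 were higher and 6 lower in MttpLKO against control, 7 and 6 in DKO against MttpLKO, and 8 and 7 in DKO against control. These are 11.7%, 11.7% and 13.5% of the 111, beside 6.97%, 9.1% and 11.2% of all tested genes. The list medians farthest from that of all genes were those of fatty acid desaturation and elongation, with a log2 fold change of 0.18 over 20 genes in DKO against MttpLKO and 0.19 in DKO against control, and of choline and methyl donor supply, with -0.18 over 15 genes in DKO against MttpLKO. In that elongation list 4 of 20 genes were higher in DKO than in control at an unadjusted p under 0.05 and 0 of 20 lower, where 5.91% of all tested genes were higher and 5.33% lower. Elovl1, which elongates saturated and monounsaturated chains, had 59.8, 51.2 and 54.2 CPM in controls, 64.7, 53.8 and 61.8 in MttpLKO, and 75.1, 72.2 and 72.8 in DKO, without overlap between DKO and the rest. Its log2 fold change in DKO against control was 0.41 ± 0.10 (edgeR adjusted p = 0.161, DESeq2 adjusted p = 0.0219). Of all genes, 18.1% had no overlap between DKO and control and 11.5% between DKO and MttpLKO. Elovl4 was under 1 CPM in every library.

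In phospholipid synthesis, Agpat2, which makes phosphatidic acid, averaged 228 ± 26.0 CPM in controls, 216 ± 44.3 in MttpLKO and 310 ± 21.8 in DKO (n = 3 each). Its log2 fold change in DKO against MttpLKO was 0.52 ± 0.15 (edgeR adjusted p = 0.287). The summed adipocyte markers were also higher in all 3 DKO libraries than in the other 6, but no single marker of the list was. Adipoq and Plin1 were under 1 CPM throughout, and Cfd had 11.7, 56.6 and 2.28 CPM in the DKO libraries. Lipe had 29.1, 33.3 and 38.9 CPM in DKO and 26.9 to 31.0 in controls. Fabp4 was highest in MttpLKO replicate 3. The part of these markers in the Agpat2, Chpt1 and Elovl1 values was not tested. Chpt1, the last step of the choline route, averaged 131 ± 21.7, 144 ± 32.4 and 188 ± 7.002 CPM, and Pcyt2, which activates ethanolamine, 1033 ± 56.9, 900 ± 20.6 and 822 ± 107 CPM. Neither passed the test in DKO against control (edgeR adjusted p = 0.285 and 0.347). Taz, which remodels cardiolipin, averaged 52.9, 47.1 and 38.7 CPM in controls, MttpLKO and DKO, and Lpin1, a phosphatidate phosphatase, 719, 904 and 484 with an SD of 348 in DKO. Lclat1, a lysophospholipid acyltransferase, averaged 28.9, 33.5 and 35.6 CPM.

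Of the methyl donor genes, Mat1a, which makes the S-adenosylmethionine that Pemt uses, had 1780, 2215 and 2338 CPM in controls, 3912, 4532 and 2633 in MttpLKO, and 2369, 2063 and 3251 in DKO. MttpLKO lay above control without overlap, with a log2 fold change of 0.81 ± 0.22 (edgeR adjusted p = 0.301, DESeq2 adjusted p = 0.0265). Lack of overlap in that comparison was shared by 14.3% of all genes. Ahcy, which clears the product of methylation, averaged 374 ± 3.03 CPM in controls, 398 ± 51.2 in MttpLKO and 300.1 ± 13.8 in DKO. Its log2 fold change in DKO against MttpLKO was -0.41 ± 0.11 (edgeR adjusted p = 0.266, DESeq2 adjusted p = 0.0409).

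Among phospholipases and lysophospholipid genes, Pld2 averaged 14.0, 11.3 and 10.1 CPM in controls, MttpLKO and DKO, Pla2g6 104, 81.1 and 109, and Pla1a, a phospholipase acting on phosphatidylserine, 51.2, 54.2 and 44.3. None passed the test. The smallest adjusted p of the pathway lists belonged to Tm6sf2, a gene known for its part in the lipidation of very low density lipoprotein. It had 42.9, 49.99 and 45.6 CPM in controls, 66.6, 54.4 and 49.6 in MttpLKO, and 36.6, 38.0 and 37.7 in DKO, with all DKO libraries below the other 6. The log2 fold change in DKO against MttpLKO was -0.60 ± 0.12 (edgeR unadjusted p = 0.000372, adjusted p = 0.0794). It passed the threshold in 3 of 18 alternatives, without the low-count filter (adjusted p = 0.0262), with DESeq2 (adjusted p = 0.00243) and without MttpLKO replicate 3 (adjusted p = 0.0366). In the others it did not pass, with an adjusted p of up to 0.261 (without MttpLKO replicate 2). Lack of overlap between DKO and MttpLKO was shared by 11.5% of all genes, and between DKO and control by 18.1%. Tmem135, a regulator of peroxisomal lipid handling, averaged 46.1, 51.3 and 55.9 CPM. Srebf1, the gene of the factor known to drive desaturase transcription, averaged 366, 223 and 330 CPM and, within genotypes, had r of -0.0230, -0.0556 and -0.0368 with Fads1, Fads2 and Elovl2 over the 9 libraries. Insig1 and Insig2, which both restrain SREBP, had r of opposite sign, 0.534, 0.427 and 0.407 for Insig1 and -0.673, -0.716 and -0.739 for Insig2. Over the 14 listed regulators r ran from -0.673 to 0.627 with Fads1, -0.716 to 0.474 with Fads2 and -0.739 to 0.445 with Elovl2. These are descriptions with no test, chosen after the values were seen.

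**Figure D5:**
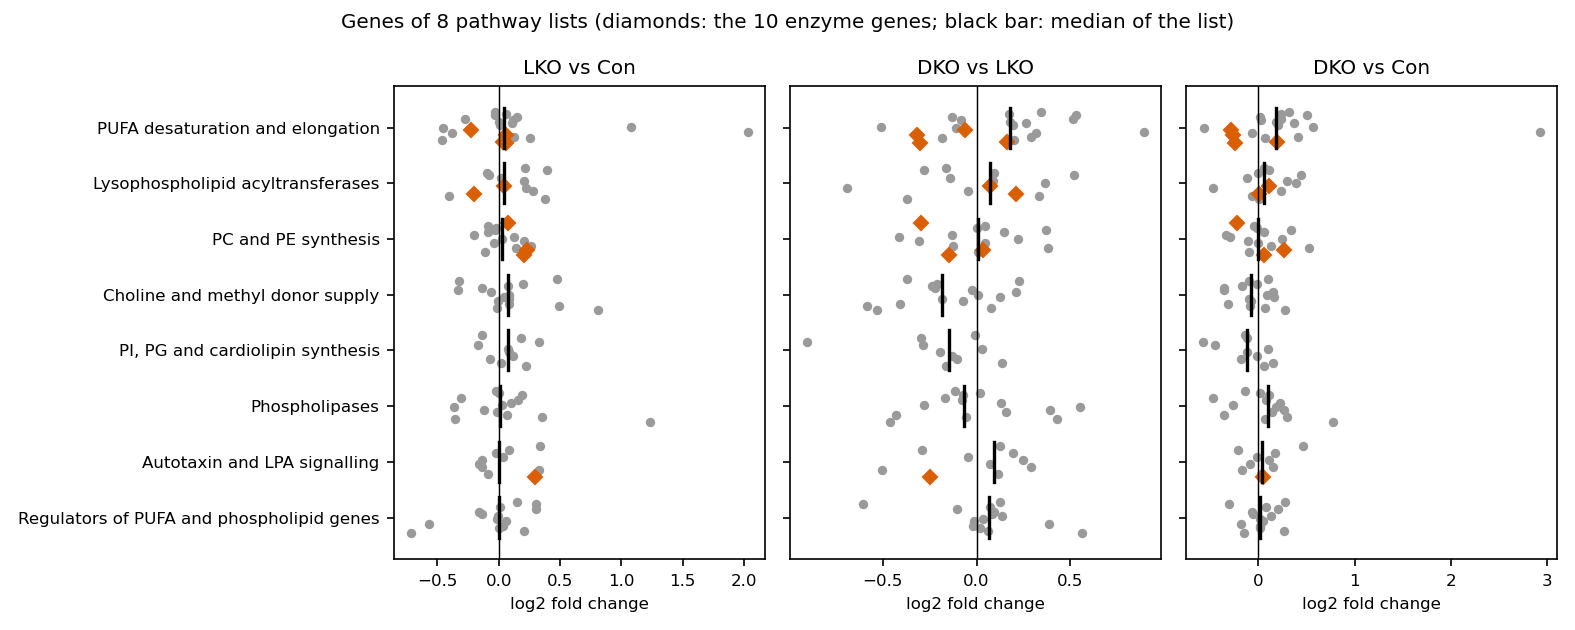
Log2 fold change of the tested genes of 8 pathway lists in the 3 comparisons, 1 point per gene. Diamonds are the 10 enzyme genes and black bars the median of each list. None of the 111 genes passed the edgeR test.

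Likeness of profile to each of the 10 was measured by Pearson r of log2 CPM over the 9 libraries, among 12425 named genes. It is a description with no test, and the genes compared share library and depth. For Fads2 they were C6 (r = 0.960), Aimp2 (0.953) and Pdia5 (0.932). After each other, Fads1 was most like Ogt (0.965) and Tpst1 (0.9498), and Elovl2 most like Efcab2 (0.935) and Tpst1 (0.921). For Elovl5 the nearest was Ttf2 (0.923), for Lpcat3 1810034E14Rik (0.961), for Mboat7 Enpp4 (0.965), for Pemt Slc9a8 (0.957), for Pcyt1a Cpped1 (0.966) and for Chka Ncoa5 (0.932). Enpp2 had the lowest top value, 0.873 with Mtch1.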

How the data were processed

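The deposited tables give, for each of 9 libraries, whole-number read counts per gene that are not normalized, beside CPM and RPKM that the authors derived from them, per the file headers. Recomputing the deposited CPM and RPKM from counts and lengths gave largest differences of 5.1e-11 and 4.7e-11, and neither was tested. The submitters' processing notes name STAR 2.0.4b, Subread and featureCounts 1.4.5 without saying what each did. Genome build, annotation, strand setting and the treatment of multiply mapped reads: not given in the sources used here. Coordinates are printed as deposited. Symbols matched 97.26% of identifiers.

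edgeR 4.0.16 (R 4.3.3) kept 14741 genes with filterByExpr at a minimum count of 10, scaled by TMM, and fitted 3 genotype means over all 9 libraries. Differences were tested with its quasi-likelihood F test, adjusted by Benjamini-Hochberg over all genes, at 0.05. A standard error is the fold change divided by the root of F. The biological coefficient of variation was 18.3%, which with 3 pools per genotype sets the precision. DESeq2 1.42.0, limma-voom (limma 3.58.1), other scalings and filters, the 6 compared libraries, a replicate block and leaving out each library were alternatives. The fitting functions were also run on counts simulated with known changes, from the means and spread of the main fit. Replicates differed by more than sampling noise, with a chi-square of 19.6 to 64.9 per degree of freedom.

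The 10 genes and the lists were chosen with earlier results of these data known. Named beside them were Mttp and Fabp1, called genes of the lists, the 2 genes with the smallest unadjusted p in each list, the 3 genes most alike to each of the 10, and called genes within 500 kb of Lpcat3. Correlations used log2(CPM + 0.5). Pairs, ratios and regulators outside this rule were picked with their values in view.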

Additional observations from a re-analysis of the deposited data

How the results depend on the processing

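Under 18 alternatives, 0 of the 10 genes were called in each comparison. Of 540 recomputed log2 fold changes of these genes, 18 changed sign, all with a reported size of at most 0.063, and 17 of the 18 by leaving out a library. The other was Lpcat3 in DKO against control, -0.0118 with upper-quartile scaling. With 1 library left out, MttpLKO against control ran from -0.0286 to 0.181 for Fads1, -0.0953 to 0.30 for Fads2, -0.0402 to 0.245 for Elovl2 and -0.0508 to 0.093 for Mboat7. DKO against MttpLKO ran from -0.238 to 0.118 for Elovl5 and -0.12 to 0.254 for Pcyt1a. DKO against control ran from -0.0704 to 0.0777 for Lpcat3, -0.0862 to 0.146 for Chka and -0.0837 to 0.143 for Enpp2. No scaling moved the median of all genes by 0.1 on the log2 scale.

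Genes called over the whole table, reported as 51 in MttpLKO against control, 59 in DKO against MttpLKO, 49 in DKO against control and 100 in the joint test, were 171, 180, 201 and 337 without the low-count filter and 165, 214, 256 and 406 with DESeq2. With only the 6 compared libraries they were 50, 34 and 78. Leaving out 1 library gave 14 to 54, 22 to 73, 15 to 100 and 47 to 136. The lowest counts came without control replicate 2 or 3 (14 and 14 in MttpLKO against control), without MttpLKO replicate 2 (22 in DKO against MttpLKO) and without control replicate 2 or 3 (15 and 15 in DKO against control). The highest in DKO against control, 100, came without MttpLKO replicate 3. The cause was not tested. Of the pathway genes, 1, 1, 0 and 1 were called without the filter (Mat1a, Tm6sf2, none, Tm6sf2) and 1, 2, 1 and 4 with DESeq2, where Gnmt joined Elovl1, Tm6sf2 and Mat1a in the joint test. Without MttpLKO replicate 3, 2 were called in DKO against MttpLKO (Tm6sf2 and Gnmt) and 1 in the joint test (Gnmt), and 0 to 2 is the range over the libraries left out. Gnmt lies outside the rule for named genes and was chosen after its values were seen.

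Replicate numbers gave no sign of pairing between the samples. Of 9 same-numbered pairs of libraries, 0 had deviations from the genotype means correlated above 0.1 (r from -0.244 to 0.0721). In 4 of 18 comparisons a library matched best with its own number. With 3 libraries per genotype, this check cannot settle whether same-numbered pools were prepared together. With the replicate block 35, 43, 40 and 77 genes were called, and 0 of the 10.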
